A study of Homo sapiens with 6 samples.

Results

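The urea cycle genes are 10 genes that encode the enzymes and carriers of ammonia disposal: CPS1, OTC, ASS1, ASL, ARG1, ARG2, NAGS, SLC25A13, SLC25A15 and GLUD1. They were taken by symbol from the 60623 genes of the deposited tables, and each symbol stood on a single row. The cells were PLC/PRF/5, an established line of human liver carcinoma, sequenced as 6 RNA libraries. Of these, 3 carried a lentivirus labelled as overexpressing the zinc finger factor ZFP64 (ZFP64-OE) and 3 a control lentivirus (also called EV). All cells shared the same line, medium and lentiviral delivery. Neither the promoter of the vector nor any cloning of the cells is stated in the labels.

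The urea cycle turns toxic ammonia into urea, and in the body it runs in full mainly in hepatocytes of the liver. It starts in the mitochondrion, where CPS1 joins ammonia and bicarbonate into carbamoyl phosphate and OTC passes this to ornithine to make citrulline. In the cytosol ASS1 and ASL bring in another nitrogen from aspartate and yield arginine, which ARG1 splits into urea and ornithine. Liver cancers often carry less of some of these enzymes than normal liver, and loss of ASS1 makes cells depend on arginine from outside.

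The libraries held between 26468949 and 39739674 counts, with the lowest total in replicate 1 labelled control, which also stood apart on the second principal component. The overexpressed gene went against its label. ZFP64 was at 34.1 ± 2.24 CPM in the ZFP64-OE libraries and 147 ± 11.8 CPM in the control libraries (SD, n = 3 each; CPM are counts per 1e6 library counts after TMM scaling), 4.31-fold lower. The libraries are therefore named by their labels throughout, and each direction is that of the ZFP64-OE-labelled libraries. Whether the group labels were exchanged was not tested, and an exchange would reverse every direction given here. Hepatocyte markers were uneven in level, with APOB at a mean of 768 FPKM (fragments per kilobase of gene and 1e6 counts) and ALB at only 17.5 FPKM. TTR, the plasma carrier of thyroxine, was near 0, at a mean of 0.0252 FPKM. The labels do not say that replicates came from separate cultures, so p-values cover only the spread among these libraries, which may be technical.

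The cycle was expressed very unevenly. Transcripts of its entry step CPS1 and of ASS1 were among the most abundant of the cell, while those of OTC and ARG1, the steps just after and at the end, were low. Between the groups, ARG1 was the single gene of the 10 that passed the test, and it was 1.96-fold lower in the ZFP64-OE-labelled libraries. All 10 genes had enough counts to be tested, and 9 did not reach 0.05 in edgeR's quasi-likelihood test (p adjusted by Benjamini-Hochberg over all genes). Of all 19173 genes tested, 5.81% passed, 1.78% higher and 4.03% lower. With 1 call among 10 genes, the urea cycle genes lay near that background.

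Levels were compared between genes per length, as FPKM averaged over the 6 libraries. ASS1 was the highest, with a mean of 346 FPKM and a range over libraries of 292 to 417, and ranked 56 among 19930 protein-coding genes. CPS1 followed with a mean of 288 FPKM (range 241 to 338, rank 67). The ranges of these neighbours overlapped, so their order does not exceed the spread between libraries. CPS1 alone took between 0.262% and 0.368% of all counts of a library.

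GLUD1, the mitochondrial glutamate dehydrogenase that can release ammonia for the cycle, came next with a mean of 74.6 FPKM and a range of 71.0 to 77.3. The mitochondrial carriers SLC25A13 and SLC25A15 had means of 36.3 and 33.4 FPKM. Their ranges overlapped with each other but not with those of GLUD1 above or of ARG2 below. ARG2, the mitochondrial arginase of many tissues outside the liver, and ASL, the lyase that releases arginine, were alike in level, with means of 7.98 and 7.50 FPKM and overlapping ranges.

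NAGS, which makes the N-acetylglutamate that CPS1 requires as an activator, was at a mean of 1.24 FPKM (range 0.948 to 1.70). ARG1 was at 0.615 FPKM (0.363 to 0.974) and OTC at 0.571 FPKM (0.449 to 0.718). The range of NAGS lay wholly above that of OTC. It touched the range of ARG1, but within every library NAGS was the higher of the pair. ARG1 and OTC overlapped, so their order does not exceed the spread between libraries. From ASS1 to OTC the mean level per length differed 607-fold. In the cytosolic part of the pathway, the ratio of ASS1 to ASL lay between 40.4 and 58.9 in every library.

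**Figure D1:**
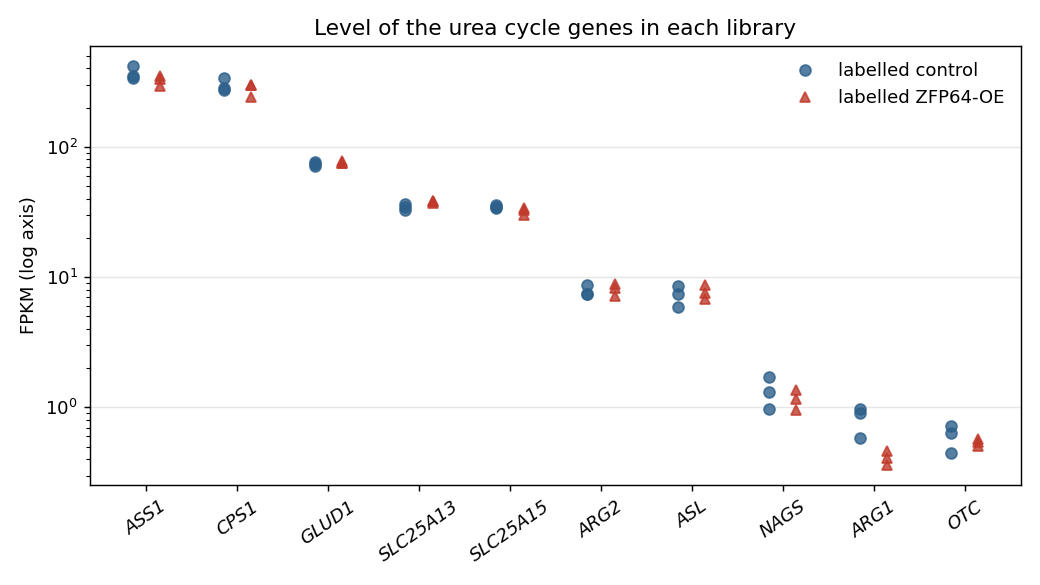
FPKM of each urea cycle gene in each library on a log axis, ordered by the mean over all libraries; circles are the 3 libraries labelled control and triangles the 3 labelled ZFP64-OE. ASS1 and CPS1 sit above 200 FPKM and OTC and ARG1 below 1 FPKM in every library, and the groups of ARG1 do not overlap.

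ARG1 encodes the liver arginase that completes the cycle. Its counts were 35, 32 and 36 in replicates 1, 2 and 3 labelled ZFP64-OE and 34, 81 and 63 in the control-labelled ones. Scaled to library size these were 0.933, 0.823 and 1.02 CPM against 1.33, 2.11 and 1.91 CPM. Every ZFP64-OE-labelled library was below every control-labelled one, and the lowest control was replicate 1, the library with the smallest total. Groups did not overlap for 21.9% of all genes tested.

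The group means of ARG1 were 0.925 ± 0.0983 and 1.79 ± 0.403 CPM (SD, n = 3 each). In log2 terms ARG1 changed by -0.97 (standard error 0.236, 95% interval -1.46 to -0.48; edgeR adjusted p = 0.0164). The call rested on few reads and on single libraries. It was lost without replicate 2 labelled control (log2 fold change -0.83, adjusted p = 0.14) and without replicate 2 labelled ZFP64-OE (-0.89, adjusted p = 0.0775), while the direction was kept in all 6 fits that left out a library. It was also lost with limma on log2 FPKM, at an adjusted p of 0.121 with a pseudocount of 1.

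ARG1 lies on the plus strand of chromosome 6 from 131573144 to 131584332 (GRCh38, GENCODE v29), and MED23, a Mediator subunit gene on the opposite strand, spans 131573966 to 131628229 and so covers most of it. No strand setting of the counting is stated, so reads of the overlapping genes cannot be told apart with certainty. The same limit holds for ARG2, which VTI1B overlaps in part on the opposite strand, and for GLUD1, which SHLD2 overlaps likewise. VTI1B was at a mean of 46.8 CPM over the 6 libraries and SHLD2 at 81.4 CPM. Neither passed (log2 fold change -0.03 and 0.07, edgeR adjusted p = 0.901 and 0.69). MED23 was at 72.0 ± 5.69 CPM in the ZFP64-OE-labelled libraries against 64.8 ± 1.13 CPM in the control-labelled ones. The groups of MED23 did not overlap, as for 21.9% of all genes tested. Its log2 fold change of 0.15 did not pass (edgeR adjusted p = 0.301) and pointed the other way from that of ARG1.

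Some markers of other cell types moved with the groups as well, where 5.81% of all genes passed. Of 5 biliary markers 4 were tested, of which KRT7, KRT19 and SOX9 fell and CFTR rose, and their summed level was 42.2 to 44.7 CPM in the ZFP64-OE-labelled libraries against 59.5 to 66.5 CPM. The calls of KRT7 and CFTR were lost without replicate 2 labelled control (edgeR adjusted p = 0.101 and 0.118) and with limma on log2(FPKM + 1) (0.115 and 0.164), while those of KRT19 and SOX9 held in all 6 fits that left out a library. Of 7 macrophage markers 2 were tested, of which LYZ fell and CSF1R did not pass (edgeR adjusted p = 0.938). Their summed level of 320 to 388 against 522 to 574 CPM was nearly all LYZ (319 to 387 against 521 to 574 CPM). The defining marker PTPRC was at 0 in every library. Of 7 fibroblast markers 3 were tested and COL3A1 fell (sum 6.43 to 8.13 against 9.57 to 11.0 CPM, COL1A2 at 0). COL1A1 and PDGFRB did not pass (edgeR adjusted p = 0.766 and 0.675). Of 5 endothelial markers 2 were tested, of which PECAM1 fell and CDH5 did not pass (edgeR adjusted p = 0.806). The endothelial sum of 3.74 to 5.87 against 12.9 to 13.2 CPM was nearly all PECAM1 (3.43 to 5.56 against 12.6 to 12.8 CPM), with KDR and TEK at 0. The 12 hepatocyte markers moved in both directions, with 4 of 11 tested higher and 2 lower by edgeR and 2 and 2 by limma on log2(FPKM + 1) (sum 20085 to 26110 against 16298 to 22152 CPM). Their part in the result for ARG1 was not tested, and in bulk RNA fewer cells that carry a transcript and less of it per cell cannot be told apart.

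ARG2, which catalyses the same reaction in the mitochondrion, did not pass, and the difference between its change and that of ARG1 was not tested. It was at 16.8, 20.8 and 18.7 CPM in the ZFP64-OE-labelled libraries against 17.5, 19.5 and 16.1 CPM in the control-labelled ones, so the groups overlapped. The log2 fold change was 0.08 with a 95% interval of -0.13 to 0.30 (edgeR adjusted p = 0.726). In every library ARG2 was the more abundant arginase transcript per length. The ratio of ARG2 to ARG1 FPKM was 17.5, 24.6 and 17.8 in the ZFP64-OE-labelled libraries against 12.7, 9.00 and 8.17 in the control-labelled ones. The groups did not overlap in this ratio, which has ARG1 as its denominator and is given without a test.

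**Figure D2:**
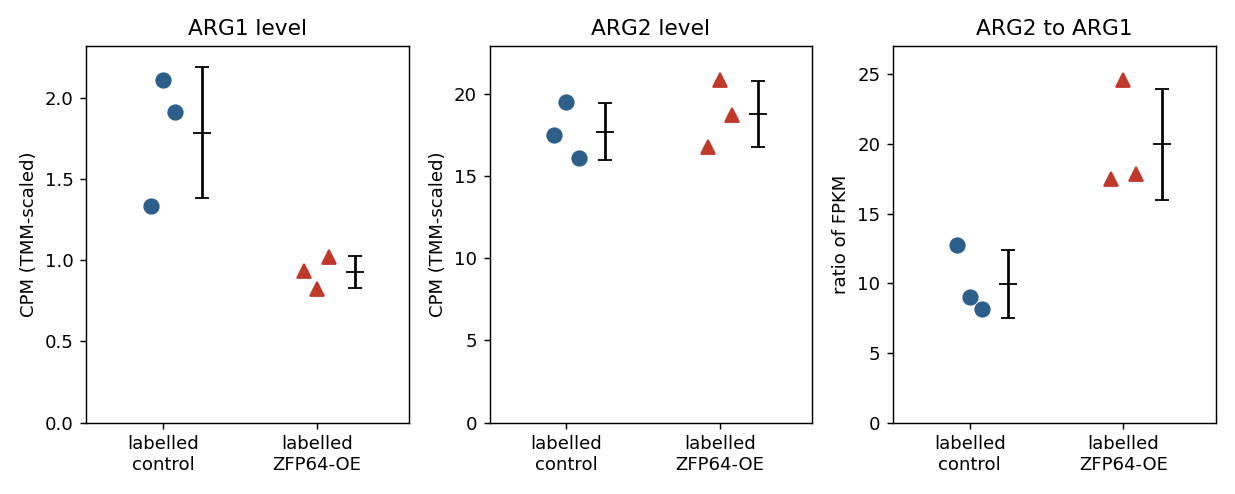
Level of ARG1 and of ARG2 in CPM and the ratio of their FPKM in each library, by label; points are libraries and the bar beside them is the mean with its SD (n = 3). ARG1 is lower in all 3 libraries labelled ZFP64-OE, ARG2 overlaps between the groups, and the ratio is between 17.5 and 24.6 against 8.17 to 12.7.

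The sequences before the starts of the arginase genes are shown because their enzymes share a reaction and ARG1 alone passed the test. Each window runs from 250 bases before to 50 after the RefSeq start (GRCh38.p14, plus strand, 5′ to 3′), for ARG1 at chr6:131572976-131573275 and for ARG2 at chr14:67619670-67619969. Capitals mark matches on either strand to TATAAA, the core of a TATA box, to GGGCGG, known as a GC box, to CCAAT, known by its letters, or to TGACGTCA, the cyclic AMP response element (CRE).
ARG1: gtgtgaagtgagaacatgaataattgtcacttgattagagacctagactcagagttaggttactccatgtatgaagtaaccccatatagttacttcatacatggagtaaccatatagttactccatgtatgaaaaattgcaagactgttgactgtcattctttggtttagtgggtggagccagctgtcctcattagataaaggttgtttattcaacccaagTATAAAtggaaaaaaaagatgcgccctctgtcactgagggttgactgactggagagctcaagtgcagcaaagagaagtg
ARG2: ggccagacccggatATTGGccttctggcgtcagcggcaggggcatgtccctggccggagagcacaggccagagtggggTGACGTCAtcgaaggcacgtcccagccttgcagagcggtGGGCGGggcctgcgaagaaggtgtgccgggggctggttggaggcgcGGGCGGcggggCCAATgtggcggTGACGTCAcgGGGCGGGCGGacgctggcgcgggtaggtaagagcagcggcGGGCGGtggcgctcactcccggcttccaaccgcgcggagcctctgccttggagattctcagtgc
The ARG1 window held 1 CpG dinucleotide and a TATA box 29 bases before the start. The ARG2 window held 31 CpG dinucleotides, 5 GC boxes of which a pair overlap, 2 CCAAT boxes and 2 CREs, and no TATA box. Among all 35116 windows of this length, 11.5% held TATAAA, 45% GGGCGG, 34.6% CCAAT and 1.85% TGACGTCA. A match of letters is a description and not a binding site.

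The 10 genes had 13 listed starts, 3 of them for CPS1 and 2 for ASS1. All 10 genes were found in the table. GC boxes stood in 8 of the 13 windows, in every gene but CPS1, OTC and ARG1. These 3 genes had 1 to 3 CpG dinucleotides per window, while the windows of the other members had 15 to 47, and the median of all windows was 14. TATAAA matched in ARG1 and OTC alone, 29 bases before the start in ARG1 and 192 bases before it in OTC. Neither CAAAGTCCA, a motif of the hepatocyte factor HNF4, nor TTGCNNAA, a motif of C/EBP factors, matched in any of the 13 windows (0.384% and 10.5% of all windows hold them). Of these 3 CpG-poor genes, CPS1 was among the highest members in level and OTC and ARG1 were the lowest. Which of the 3 listed CPS1 starts these cells use is not known, so its level cannot be assigned to any of its windows.

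Among the mitochondrial enzymes, CPS1 was at 3284, 3294 and 2601 CPM in the ZFP64-OE-labelled libraries against 3819.9, 3004 and 2822 CPM in the control-labelled ones. The groups overlapped, and replicate 1 labelled control was the highest. The log2 fold change was -0.07 (95% interval -0.35 to 0.21, edgeR adjusted p = 0.832), and it was 0.07 without that library. OTC, the next enzyme, had only 20 to 40 counts in a library, and its levels of 0.987, 0.875 and 0.906 CPM against 0.785, 1.04 and 1.15 CPM overlapped. Its log2 fold change of -0.12 had the widest interval of the 9 genes that did not pass, -0.65 to 0.40, or 0.638-fold to 1.32-fold.

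NAGS was at 2.67, 3.81 and 3.20 CPM in the ZFP64-OE-labelled libraries against 2.79, 4.56 and 3.46 CPM in the control-labelled ones. The groups overlapped, and the log2 fold change of -0.18 did not pass (95% interval -0.57 to 0.22, edgeR adjusted p = 0.679). GLUD1 was at 289, 291 and 290.5 CPM against 298, 271 and 256 CPM. The libraries labelled ZFP64-OE lay within the range of the controls, with a log2 fold change of 0.08 (-0.11 to 0.26).

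GLUD1 has a near-identical intronless copy, GLUD2, and the division of reads between them is uncertain. GLUD2 counts were between 48.0% and 52.2% of those of GLUD1 in every library, and its log2 fold change was 0.03 (edgeR adjusted p = 0.895). The pseudogene GLUD1P3 held 74 to 148 counts. By contrast, the 11 ASS1 pseudogenes together held 37 to 61 counts, at most 0.18% of the ASS1 count, and the 5 SLC25A15 pseudogenes at most 0.249% of that gene's count.

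In the cytosol, ASS1 was at 901, 1016 and 1056 CPM in the ZFP64-OE-labelled libraries against 1095, 1229 and 978 CPM in the control-labelled ones. The groups overlapped through replicate 3 labelled control, and the log2 fold change was -0.15 (95% interval -0.38 to 0.08, edgeR adjusted p = 0.496). ASL was at 42.0, 46.9 and 52.2 CPM against 37.1, 50.2 and 42.8 CPM, again overlapping (0.11, -0.10 to 0.33, adjusted p = 0.608). The ratio of ASS1 to ASL within a library did not overlap, at 42.8, 43.3 and 40.4 in the ZFP64-OE-labelled libraries against 58.9, 48.9 and 45.7 in the control-labelled ones. This ratio is given without a test, and its genes were paired with results known. Groups did not overlap for 21.9% of single genes tested, and the share for ratios was not computed.

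SLC25A13, also called citrin, exports the aspartate that ASS1 consumes, and SLC25A15 exchanges ornithine for citrulline across the inner membrane. SLC25A13 was at 145, 147 and 138 CPM in the ZFP64-OE-labelled libraries against 141, 119 and 121 CPM in the control-labelled ones. Replicate 1 labelled control fell among the ZFP64-OE libraries, and the log2 fold change of 0.17 (95% interval -0.01 to 0.35) did not pass (edgeR adjusted p = 0.284). Without that library the log2 fold change was 0.25 and still did not pass (edgeR adjusted p = 0.0559). SLC25A15 was at 128, 144 and 136 CPM against 147, 146 and 138 CPM, with overlapping groups and a log2 fold change of -0.08 (-0.24 to 0.09). SLC25A12, the aspartate carrier of brain and muscle that resembles citrin, was lower per length than SLC25A13 in every library, and the ratio of SLC25A13 to SLC25A12 was 4.19 to 5.38.

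For 8 of the 10 genes the 95% interval of the difference lay within 1.5-fold in either direction, and for 6 of them, CPS1, ASL, ARG2, SLC25A13, SLC25A15 and GLUD1, within 1.3-fold. The genes with wider intervals than 1.5-fold were ARG1 and OTC. The median log2 fold change of the 10 genes was -0.07, beside -0.02 for all genes, and the median size of the change was 0.12 beside 0.15. No member was called higher by edgeR, DESeq2 or limma-voom. At an unadjusted p under 0.05 with edgeR, which 19.1% of all genes reached, there was none higher and 1 lower. SLC25A13 was higher with DESeq2 at an unadjusted p of 0.0339 (adjusted p = 0.225). Its unadjusted p was also under 0.05 in edgeR with RLE scaling, without the filter and with the replicate block (adjusted p = 0.251, 0.33 and 0.173).

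**Figure D3:**
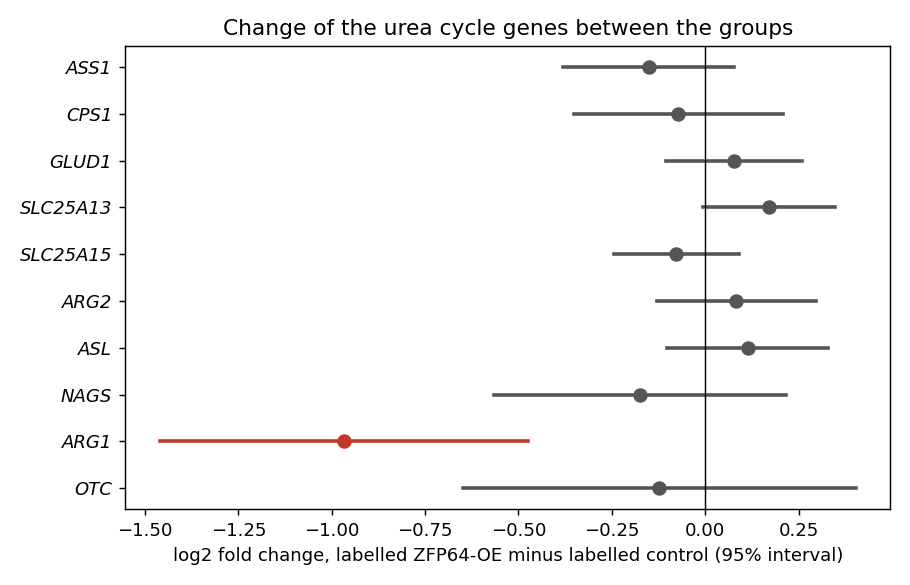
Log2 fold change of each urea cycle gene, libraries labelled ZFP64-OE minus the control-labelled ones, with its 95% interval from edgeR, in order of level from top to bottom; red marks an adjusted p under 0.05. The interval of ARG1 (-1.46 to -0.48) lies wholly below 0 and those of the other 9 genes include 0.

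An RNA annotated inside CPS1 passed the test, and the difference between its change and that of CPS1 was not tested. CPS1-IT1 lies within CPS1 on the same strand, on chromosome 2 from 210617571 to 210619876 (GRCh38), so reads of unspliced CPS1 RNA cannot be told apart from it. It was at 2.43, 2.70 and 2.38 CPM in the ZFP64-OE-labelled libraries against 4.40, 4.77 and 3.83 CPM in the control-labelled ones. The groups did not overlap, and the log2 fold change was -0.79 with a standard error of 0.159 (edgeR adjusted p = 0.00368), which passed in all 6 fits that left out a library. As a share of CPS1 counts it was 0.0739%, 0.0820% and 0.0915% against 0.115%, 0.159% and 0.136%. That share was lower in all 3 libraries labelled ZFP64-OE.

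The protein-coding genes whose level followed that of CPS1 most closely over the 6 libraries were FAM117B, SIN3A, a corepressor scaffold, and MEX3C, an RNA-binding ubiquitin ligase. The root mean square difference of their centred log2 CPM from that of CPS1 was 0.0266, 0.0409 and 0.0449, among 10275 genes with a mean of at least 5 CPM. These libraries share the cell line and medium and differ in depth, and replicate 1 labelled control was the highest for CPS1.

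Genes around the cycle were taken from lists, whose counts of calls stand beside 5.81% of all genes tested. Of 17 tested genes of ammonia and glutamine handling, 1 fell, 0 rose and 16 did not pass with edgeR (at an unadjusted p of 0.05, 1 lower and 2 higher; DESeq2 called 1 higher and limma-voom 0), with a median log2 fold change of 0.03. The faller was GLUL, glutamine synthetase, which removes the ammonia that the cycle leaves. GLUL was at 113, 120.5 and 115 CPM in the ZFP64-OE-labelled libraries against 159, 142 and 135 CPM in the control-labelled ones. The groups did not overlap and the log2 fold change was -0.32 (edgeR adjusted p = 0.0242), but the call was lost without replicate 1 or 2 labelled ZFP64-OE or replicate 1 labelled control (highest adjusted p 0.105).

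Among 11 tested carriers and partners, 2 fell, 0 rose and 9 did not pass (at an unadjusted p of 0.05, 2 lower and 0 higher; DESeq2 called 1 lower and limma-voom 2, and neither called any higher). SLC7A2, which brings arginine and other cationic amino acids into the cell, was at 83.1, 83.5 and 66.6 CPM in the ZFP64-OE-labelled libraries against 124, 111 and 102 CPM in the control-labelled ones. The groups were apart, and the log2 fold change of -0.53 (standard error 0.0957, edgeR adjusted p = 0.0013) passed in all 6 fits that left out a library. SLC25A29, a mitochondrial carrier of basic amino acids, fell by 0.38 in log2 terms (edgeR adjusted p = 0.0344), and its call was lost without 4 of the libraries, which were replicates 1 and 2 labelled ZFP64-OE and replicates 2 and 3 labelled control (highest adjusted p 0.174), and also with DESeq2 (adjusted p = 0.0514) and with limma on log2(FPKM + 1) (adjusted p = 0.24). The urea transporter gene SLC14A2 and the ornithine carrier gene SLC25A2 had no count in any library.

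Of 23 tested genes for other uses of arginine and ornithine, 1 rose, 1 fell and 21 did not pass (at an unadjusted p of 0.05, 3 higher and 5 lower). DDAH1, which breaks down methylated arginines that inhibit nitric oxide synthase, was at 257, 238 and 212 CPM in the ZFP64-OE-labelled libraries against 166, 133 and 134 CPM in the control-labelled ones. Its groups were apart and the log2 fold change of 0.71 (standard error 0.0991, edgeR adjusted p = 7.88e-05) passed in all 6 fits that left out a library. ALDH18A1, which starts proline and ornithine synthesis from glutamate, fell by 0.32 in log2 terms (edgeR adjusted p = 0.0499), a call lost without any 1 of 5 libraries (highest adjusted p 0.144) and kept without replicate 3 labelled control. It was also lost with RLE scaling (0.0751), DESeq2 (0.0507) and limma on log2(FPKM + 1) (0.0744). DESeq2 called 3 higher and 0 lower on this list. ODC1 and OAT, the enzymes that take ornithine to polyamines and to glutamate semialdehyde, were chosen after their values were seen, with mean levels of 537 and 78.4 FPKM. Their log2 fold changes of 0.30 and 0.07 did not pass (edgeR adjusted p = 0.091 and 0.745).

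Of 7 tested genes of pyrimidine synthesis and breakdown, 1 rose, 1 fell and 5 did not pass (at an unadjusted p of 0.05, 1 higher and 1 lower). CAD makes carbamoyl phosphate in the cytosol for pyrimidines, as CPS1 does in the mitochondrion for urea. CPS1 exceeded CAD by 9.17 to 12.0 times per length, with overlapping groups. TYMS, thymidylate synthase, fell by 0.33 in log2 terms (edgeR adjusted p = 0.0163; lost without replicate 2 labelled ZFP64-OE or replicate 1 labelled control, highest 0.122). DPYD, which degrades uracil, was higher at a low level, 0.541 ± 0.107 against 0.200 ± 0.136 CPM (2.83-fold, adjusted p = 0.0496), a call lost without any 1 of 5 libraries, all but replicate 1 labelled control (highest 0.24). It did not pass with limma on log2(FPKM + 1) either (adjusted p = 0.24), and DESeq2 gave it no adjusted p.

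Of 18 transcription factors and coactivators known to act on urea cycle or hepatocyte genes, 0 rose and 0 fell with edgeR (0 higher and 2 lower at an unadjusted p of 0.05; DESeq2 and limma-voom also called 0, and limma on log2(FPKM + 1) called 1 lower). HNF4A, a master regulator of hepatocyte genes, was at 307 ± 9.93 CPM in the ZFP64-OE-labelled libraries against 315 ± 22.2 CPM in the control-labelled ones. Its log2 fold change was -0.04 (edgeR adjusted p = 0.87).

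**Figure D4:**
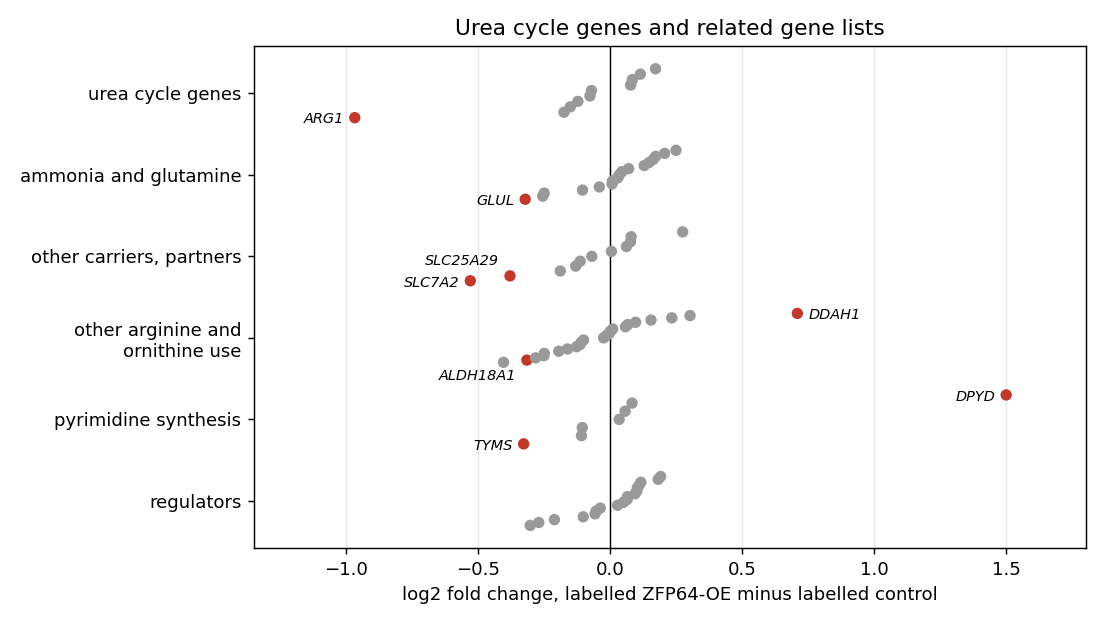
Log2 fold change of each tested gene on the urea cycle list and on 5 lists of related genes, libraries labelled ZFP64-OE minus the control-labelled ones; each point is a gene, and red points with names passed an adjusted p of 0.05. ARG1 (-0.97) is the red point among the urea cycle genes, DDAH1 (0.71) and DPYD (2.83-fold) are the rises, and no regulator passed.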

How the data were processed

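Per the labels' protocols, RNA was taken up in Trizol and prepared with an Illumina TruSeq kit. The submitters' processing notes name HISAT2 and GRCh38, while the counting program, annotation and strand setting were not given in the sources used here. The deposited table holds raw counts per Ensembl gene. The FPKM table holds the same counts divided by the authors by gene length and library total (1 length per gene for all 24388 genes with a count in every library, tolerance 1e-06).

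Counts were tested with edgeR 4.0.16 (R 4.3.3) using filterByExpr (minimum count 10, total 15), TMM scaling and the robust quasi-likelihood F-test on group, with Benjamini-Hochberg adjustment over 19173 genes and a threshold of 0.05. Standard errors are the log2 fold change over the square root of F, and 95% intervals use the test's degrees of freedom. On simulated counts with the trended dispersion, 78% of genes changed 1.5-fold and 95% of those changed 2-fold were recovered with 5 false calls. The changed genes were drawn above a floor on mean level that left out OTC (0.958 CPM) and was close to ARG1 (1.36 CPM). These rates are averages over all drawn genes of any level above that floor. They therefore do not describe OTC and give no rate for a gene as low as ARG1. Alternatives used DESeq2 1.42.0 and limma 3.58.1. No replicate pair agreed within sampling noise (chi-square per gene at least 10.2).

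The members and lists were chosen with earlier results of these data known. Genes named are the members, up to 4 called genes per list, copies and overlapping genes of members, ZFP64 and the 3 genes most like CPS1; others were chosen after their values were seen. Promoter sequences are from RefSeq (GRCh38.p14).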

Additional observations from a re-analysis of the deposited data

How the results depend on the processing

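ARG1 stayed lower under all 13 alternatives (log2 fold change -1.12 to -0.36, adjusted p 0.00223 to 0.14) and passed under 9 of them. The number of urea cycle genes called lower was 0 with limma on log2(FPKM + 1) and on log2(FPKM + 0.1), which also understate changes of low genes, and 0 to 1 when 1 library was left out; none was called higher under any of these. The sign of uncalled changes turned for CPS1 without replicate 3 labelled ZFP64-OE (0.04) or replicate 1 labelled control (0.07), for OTC without replicate 3 labelled control (0.0016) and for NAGS without replicate 2 labelled control (0.03).

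Over all genes, edgeR called 342 higher and 772 lower, 69.3% lower, against 56.8% lower with DESeq2 (455 and 599). Without a filter 518 were higher. Limma called 113 higher and 326 lower on log2(FPKM + 1), and 113 and 357 on log2(FPKM + 0.1). Leaving out 1 library gave 160 to 585 higher and 427 to 1011 lower. With the replicate block 749 were higher and 1347 lower, and the ARG1 call held (adjusted p = 0.00223). Same-numbered libraries correlated by 0.0183, 0.0198 and 0.0968 in their deviations from the group means and not every library matched its own number best, so the numbers were not treated as pairs. The alternatives for genes outside the cycle were chosen after seeing the data. Depth limits OTC and ARG1, which had 20 to 81 counts a library.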
